A study of Homo sapiens with 12 samples.

Results

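Messenger RNA levels of 32 genes of glycolysis and gluconeogenesis were followed in 12 RNA-seq libraries of HepG2 cells. The genes were taken by symbol from a fixed list, and each matched 1 row of the table of 58735 genes. They comprise 3 glucose transporters, 4 genes of the first steps (hexokinases, glucose-6-phosphate isomerase and phosphoglucomutase), 3 phosphofructokinases, 4 bifunctional PFKFB enzymes, 8 genes from aldolase to enolase, 2 pyruvate kinases with 2 lactate dehydrogenases, and 6 genes of gluconeogenesis. Of the 32, 31 passed the filter on low counts and were tested, and LDHB had 0 counts in every library. HepG2 is an established human liver cancer line, so all libraries share 1 tumour-derived genome. Each group has 3 libraries. Control cells received vehicle, NOB cells 5 µM of nobiletin, a polymethoxylated citrus flavone, and SOR cells 2 µM of sorafenib, a multikinase inhibitor given to patients with hepatocellular carcinoma. SOR+NOB cells received both agents, each at the same dose as alone. No source used here states how long the cells were exposed. Nothing in the labels says that the 3 libraries of a group came from separate cultures, so p-values measure the spread between these libraries, which may be technical.

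Glycolysis splits glucose into pyruvate in the cytosol and yields ATP and NADH, and lactate dehydrogenase regenerates the NAD+ that it needs. Gluconeogenesis runs the path backwards in the liver, with its own enzymes at the steps that glycolysis makes irreversible. Many steps have several isozymes. Adult hepatocytes rely on the transporter SLC2A2, on glucokinase and on the liver pyruvate kinase PKLR, and they release glucose through G6PC. Growing and cancer cells tend to use SLC2A1, HK2, PKM and LDHA instead.

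Library totals ran from 17945656 to 25669823 counts. All 10 hepatocyte and HepG2 markers examined were present in every library (albumin at 3038 CPM or more), and the immune marker PTPRC and the fibroblast marker COL1A1 reached at most 0.4398 CPM. The endothelial marker PECAM1 lay at 3.44 to 13.4 CPM and the stellate cell marker ACTA2 at 11.2 to 24.5. CPM are counts scaled by the TMM-adjusted library size, and n = 3 in every mean ± SD below. The SOR+NOB library of replicate 1 lay far from its 2 companions, with chi-square over degrees of freedom of 24.6 and 17.3 where every other replicate pair gave 2.69 to 5.26. Nuclear rRNA, which poly(A) capture or rRNA removal depletes, made up 7.38e-05% ± 3.82e-05 of the Control counts but 0.002202% ± 0.000597 of those in SOR+NOB. The corresponding shares of mitochondrial mRNA were 6.81% ± 0.309 and 3.88% ± 0.698, with 7.69% ± 0.0479 in NOB and 8.72% ± 0.369 in SOR. Mitochondrial rRNA was at 1.36% ± 0.0381 in Control, 1.75% ± 0.0234 in NOB, 1.94% ± 0.0875 in SOR and 2.91% ± 0.180 in SOR+NOB. The part of these differences in the results for SOR+NOB was not tested. In bulk RNA, a change in how many cells express a gene and a change in its RNA per cell cannot be told apart.

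Levels of different genes are compared here per length, in the authors' FPKM. In Control, GAPDH, which oxidises glyceraldehyde 3-phosphate, was the most abundant of the 32 at 339 ± 9.78 FPKM. The transporter SLC2A1 (180.0 ± 3.77) and the enolase ENO1 (176 ± 5.797) followed and did not differ beyond their spread. Next came the mitochondrial phosphoenolpyruvate carboxykinase PCK2 (101 ± 1.18), the triose phosphate isomerase TPI1 (71.2 ± 1.94) and LDHA (65.7 ± 2.31). Where a step has several isozymes, 1 form usually dominated, though ALDOA (3.44 ± 0.356 FPKM) and ALDOC (2.81 ± 0.341) were close. HK2 stood at 41.6 ± 1.23 FPKM against 0.0795 ± 0.0133 for HK1, PFKL at 14.7 ± 0.115 against 0.498 ± 0.134 for PFKP and 0.463 ± 0.00426 for PFKM, and PKM at 34.4 ± 0.918 against 3.89 ± 0.407 for PKLR. The fructose bisphosphatase FBP1, which reverses phosphofructokinase, was low at 0.7501 ± 0.0622 FPKM in Control.

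LDHB, the lactate dehydrogenase subunit typical of heart, was listed at 0 counts in all 12 libraries, which hold 260639785 counts together. A count of 0 allows up to 0.0115 CPM over all libraries, for counting error only. LDHB shares 997 of its 2983 exonic bases with a gene on the same strand that also had 0 counts. ALDOA, the aldolase of most tissues, was at only 3.44 ± 0.356 FPKM in Control, and it shares 1657 of its 3916 exonic bases with another gene on the same strand. How reads in shared bases were assigned is not given in the sources used here, so the level of ALDOA is uncertain. Genes on the opposite strand overlap exons of PKLR (556 of its 3168 exonic bases, with HCN3), FBP1 (283 of its 1739 exonic bases, with PCAT7), PFKM, PC and SLC37A4. They also overlap GAPDH (422 of 2981 exonic bases), ALDOC (296 of 2928) and ALDOA (520 of 3916), where the other gene had 0 counts. Smaller shares of other members are overlapped too, among them PGM1 and PFKFB2. Without a stated strand setting, reads in such bases cannot be told apart. GAPDH, ENO1, PGK1, PGAM1, TPI1, PKM and LDHA have processed pseudogenes, and reads that map more than once may be split or lost there.

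Called genes are those with an adjusted p under 0.05 in edgeR's quasi-likelihood test, adjusted over all 17115 genes tested. With nobiletin alone (NOB against Control) 14 were higher and 5 lower among the 31 tested members, and 38.2% of all genes were called (18.9% higher, 19.2% lower). With sorafenib alone 9 were higher and 11 lower, where 41.0% of all genes were called (21.7% higher, 19.3% lower). With both compounds 19 were higher and 6 lower, against 64.2% of all genes (32.2% higher, 32% lower). The members are abundant, and abundant genes are called more often. Of the 24 members with a mean of at least 10 CPM, 18, 16 and 21 were called in these comparisons (75.0%, 66.7% and 87.5%), where 52.8%, 55.3% and 76.1% of all genes that abundant were called. In these 3 comparisons the share called was above that of all genes of at least 10 CPM. Members run up to 1120 CPM (GAPDH, mean of 12 libraries), so this background is not matched to their abundance. No test of the excess was made. The 3 comparisons use the same Control libraries.

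The median log2 fold change of the members was 0.16 in NOB, -0.02 in SOR and 0.30 in SOR+NOB against Control, where the medians over all genes were 0.01, 0.0019 and -0.02. Adding nobiletin to sorafenib (SOR+NOB against SOR) raised 16 members and lowered 6, with 63.0% of all genes called (31.4% higher, 31.6% lower). Adding sorafenib to nobiletin (SOR+NOB against NOB) raised 15 and lowered 7, with 60.7% of all genes called (30.3% higher, 30.4% lower). Of the 24 abundant members, 17 and 19 were called in these comparisons (70.8% and 79.2%), where 75.2% and 73.0% of genes that abundant were. An F-test for any difference among the 4 groups was called in 29 members, all tested ones but PFKM and FBP1, and in 78.5% of all genes. Without SOR+NOB replicate 1, the members called higher and lower numbered 18 and 6 in SOR+NOB against Control, 19 and 6 against SOR, and 17 and 8 against NOB. Changes were mostly moderate: 3, 6 and 7 members were called with at least a 2-fold change in NOB, SOR and SOR+NOB against Control, where the shares over all genes were 7.90%, 9.99% and 26%.

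**Figure D1:**
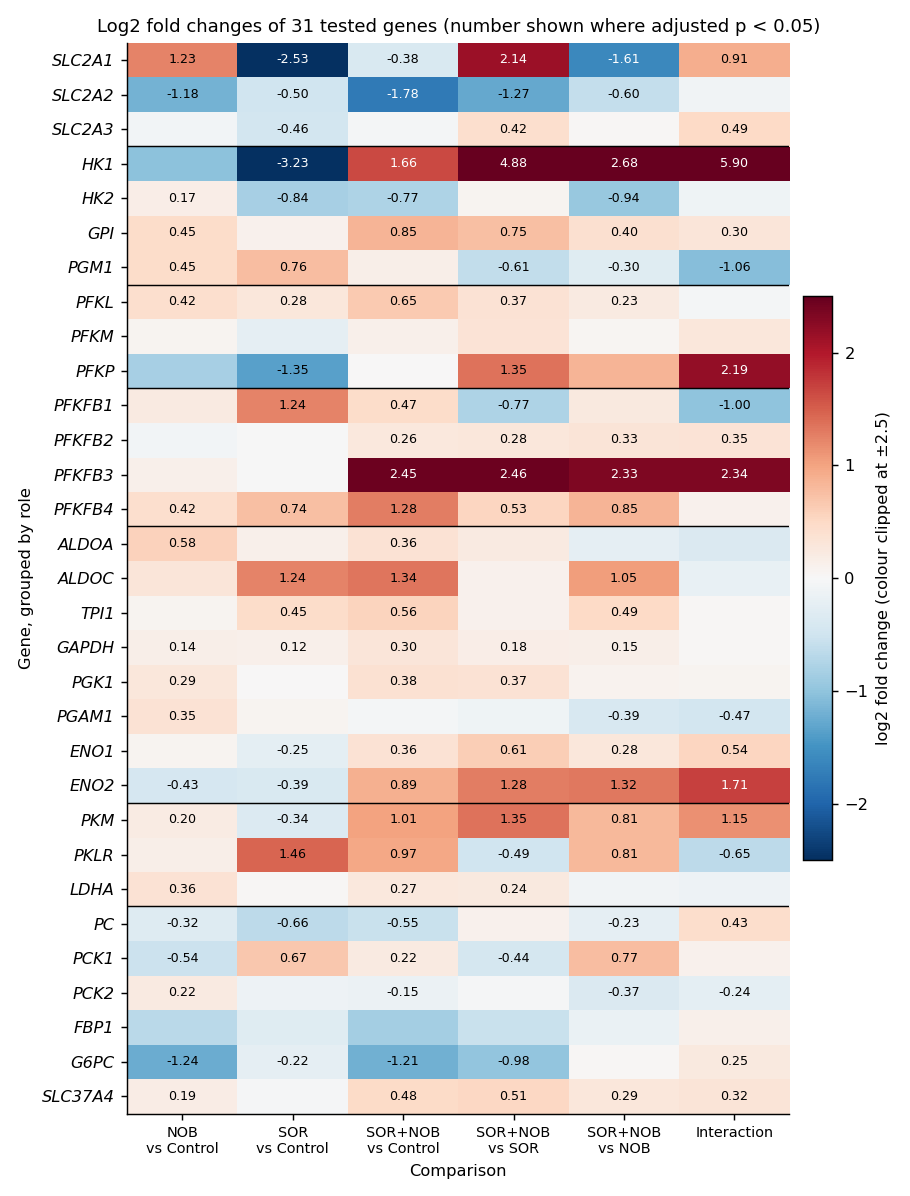
Log2 fold changes of the 31 tested genes (rows, grouped by role) in 6 comparisons (columns). Colour gives the log2 fold change, and a number is shown where the adjusted p was under 0.05. SLC2A1 runs from 1.23 in NOB to -2.53 in SOR, and PKM and ENO2 are lower in SOR and higher in SOR+NOB.

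Among the glucose transporters, SLC2A1 moved in opposite directions with the compounds and SLC2A2 fell with each. SLC2A1, the basal transporter of most cells and abundant in tumours (ENSG00000117394, chromosome 1, 42925375 to 42959176, minus strand on GRCh38), was at 865, 838 and 857 CPM in the Control libraries and at 2035, 1992 and 1983 in NOB. In SOR it was at 144, 148 and 152 CPM, and in SOR+NOB at 624, 673 and 665. No 2 groups overlapped, and the order from low to high was SOR, SOR+NOB, Control, NOB. The log2 fold change against Control was 1.23 ± 0.05 (SE) with nobiletin (adjusted p = 3.78e-15) and -2.53 ± 0.05 with sorafenib (adjusted p = 2.46e-20). Adding nobiletin to sorafenib gave 2.14 ± 0.05, which left SOR+NOB below Control at -0.38. The promoter sequence from RefSeq (GRCh38.p14, chr1:42958819-42959118, minus strand; 250 bases before to 50 after the start) is shown because this gene had the largest log2 fold change against Control among members of at least 10 CPM. It holds none of the 6 letter strings searched for below, so all its bases are in lower case.
SLC2A1: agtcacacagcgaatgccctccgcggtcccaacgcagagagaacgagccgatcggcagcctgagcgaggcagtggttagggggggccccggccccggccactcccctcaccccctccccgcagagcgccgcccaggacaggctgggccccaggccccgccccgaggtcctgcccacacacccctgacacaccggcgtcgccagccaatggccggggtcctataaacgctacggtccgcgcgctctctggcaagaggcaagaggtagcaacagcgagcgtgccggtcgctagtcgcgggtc

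SLC2A2, the liver and islet transporter that lets glucose pass in both directions (ENSG00000163581, chromosome 3, 170996348 to 171026750, minus strand), was lower in all 3 treated groups. The Control libraries were at 136, 126 and 131 CPM, NOB at 57.5, 61.6 and 55.1, SOR at 88.6, 94.5 and 94.8 and SOR+NOB at 43.0, 34.2 and 37.9. The groups did not overlap. Log2 fold changes against Control were -1.18 ± 0.07 in NOB, -0.50 ± 0.07 in SOR and -1.78 ± 0.07 in SOR+NOB (largest adjusted p = 4.46e-06). SLC2A3, the high-affinity transporter typical of neurons, fell in SOR only among the 3 comparisons with Control (-0.46 ± 0.08, 53.8 ± 1.08 to 39.1 ± 4.203 CPM). It stood at 51.1 ± 1.996 CPM in NOB and 52.3 ± 4.099 in SOR+NOB, both overlapping Control.

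TXNIP, an arrestin-like protein that is induced by glucose and restrains glucose uptake, is no member but had the same order of groups as SLC2A1 except that SOR+NOB was above Control. It was at 45.4 ± 1.98 CPM in Control, 146 ± 1.53 in NOB, 15.2 ± 0.749 in SOR and 88.97 ± 0.801 in SOR+NOB. Its log2 fold changes against Control were 1.69, -1.58 and 0.97.

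**Figure D2:**
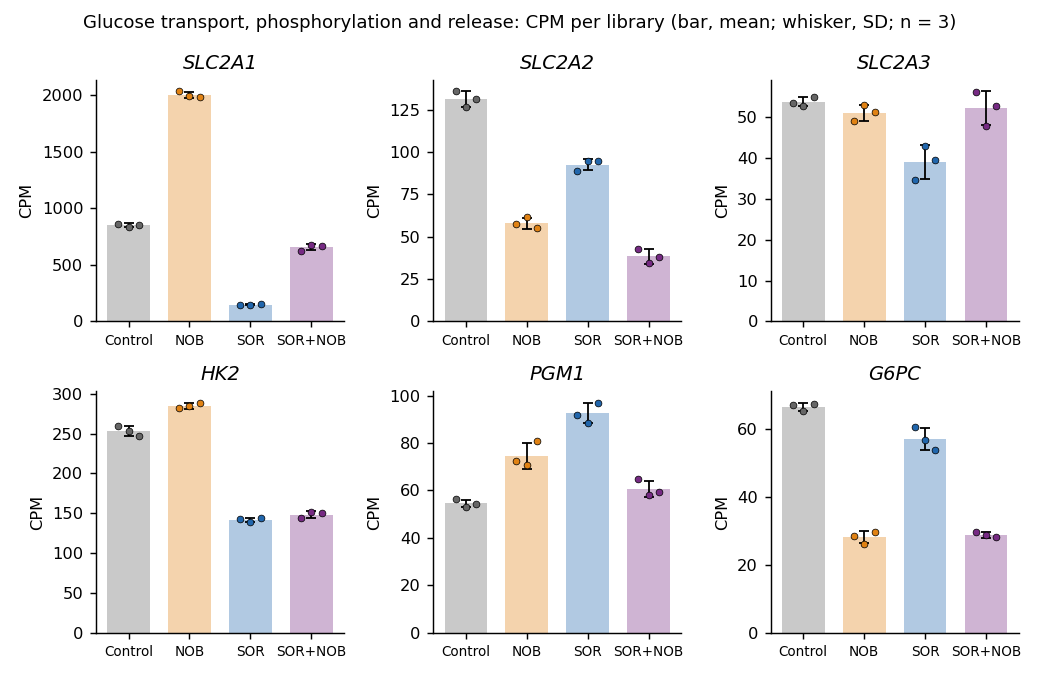
CPM per library (points) with the group mean (bar) and SD (whisker) for SLC2A1, SLC2A2, SLC2A3, HK2, PGM1 and G6PC in the 4 groups. SLC2A1 is highest in NOB and lowest in SOR, HK2 is lower in both groups with sorafenib, and G6PC is lower in both groups with nobiletin.

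HK2, the hexokinase that traps glucose in many tumours (ENSG00000159399, chromosome 2, 74833981 to 74893359, plus strand), followed sorafenib. It was at 253 ± 5.89 CPM in Control, 285 ± 3.61 in NOB, 142 ± 2.61 in SOR and 148 ± 4.38 in SOR+NOB. Its log2 fold change was -0.84 ± 0.05 with sorafenib alone and -0.77 ± 0.05 with both compounds (adjusted p = 4.4e-12 and 7.08e-12). SOR and SOR+NOB overlapped and did not differ by the test (adjusted p = 0.241). The small rise with nobiletin (0.17, adjusted p = 0.00678) was not called without Control replicate 3 (adjusted p = 0.0601). RefSeq lists 2 starts for HK2, and the promoter of the downstream start (GRCh38.p14, chr2:74834920-74835219, plus strand) is shown because it holds the E-box CACGTG, a site that MYC, HIF and ChREBP family factors can bind, at 194 and 149 bases before the start. Capitals mark these strings. The promoter of the upstream start has no E-box and holds ACGTG and TGACG, other strings searched for below.
HK2: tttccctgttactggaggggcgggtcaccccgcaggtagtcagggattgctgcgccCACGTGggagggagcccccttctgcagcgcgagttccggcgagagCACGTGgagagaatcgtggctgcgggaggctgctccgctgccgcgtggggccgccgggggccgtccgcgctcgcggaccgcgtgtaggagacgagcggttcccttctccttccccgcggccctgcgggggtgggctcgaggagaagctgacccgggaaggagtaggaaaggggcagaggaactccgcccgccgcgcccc

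HK1, the hexokinase of most other tissues, had few counts: 33 in the 3 Control libraries together, 17 in NOB, 3 in SOR and 99 in SOR+NOB. Scaled for depth, SOR+NOB was 3.095 times Control (95% exact interval 2.07 to 4.74), and SOR was 0.0968 times Control (0.01899 to 0.308). The ratio of SOR+NOB to SOR was 31.99 with an interval of 10.6 to 158, and these intervals cover counting error only. The highest of the SOR+NOB libraries was replicate 1 (2.31 CPM against 1.33 and 1.18). The rise of SOR+NOB over Control was called with all libraries (adjusted p = 0.0146) and not without any 1 of Control replicate 3 or SOR+NOB replicate 1 (adjusted p = 0.0641 to 0.0672).

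GPI, which turns glucose 6-phosphate into fructose 6-phosphate, rose in NOB (0.45 ± 0.05) and further in SOR+NOB (0.85 ± 0.05), from 155 ± 3.802 CPM to 211 ± 5.44 and 279.7 ± 4.602. Its level with sorafenib alone, 166 ± 5.78 CPM, was not called. PGM1, which links glucose 6-phosphate to glycogen (ENSG00000079739, chromosome 1, 63593276 to 63660245, plus strand), behaved differently. It was at 56.3, 53.1 and 54.2 CPM in Control and 72.3, 70.5 and 80.6 in NOB. With sorafenib alone it was at 91.9, 88.6 and 97.04 CPM, and with both compounds at 64.7, 58.1 and 59.3. Each compound alone raised it (0.45 ± 0.07 and 0.76 ± 0.07), and with both it lay below either single treatment (-0.61 ± 0.07 against SOR, -0.30 ± 0.07 against NOB).

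Phosphofructokinase sets the pace of glycolysis. Its liver form PFKL, the main form here, rose in every comparison with Control, from 132 ± 1.85 CPM to 176 ± 4.52 in NOB (0.42 ± 0.06), 159.6 ± 4.51 in SOR (0.28 ± 0.06) and 206 ± 22.4 in SOR+NOB (0.65 ± 0.06). The muscle form PFKM was called in none of the 6 comparisons and lay between 2.89 and 3.68 CPM in group means. The platelet form PFKP had 158, 95, 59 and 156 counts in the 4 groups. It fell with sorafenib (-1.35 ± 0.41, adjusted p = 0.0105), a call that was lost without any 1 of Control replicate 3 or SOR replicate 3 (adjusted p = 0.058 to 0.0655). In SOR+NOB its libraries were spread from 1.22 to 3.86 CPM, and the rise over SOR (1.35) was not called without SOR+NOB replicate 2 (adjusted p = 0.1).

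The PFKFB enzymes make and remove fructose 2,6-bisphosphate, the strongest activator of phosphofructokinase in the liver. All 4 were called higher with both compounds, and 1 in NOB and 2 in SOR, where 64.2%, 38.2% and 41.0% of all genes were called. The call of PFKFB1 with both compounds is the least firm of these. PFKFB3, the form that favours synthesis and is induced in tumours, rose only in the group with both compounds: 48, 56, 45 and 261 counts, with a log2 fold change of 2.45 ± 0.46 over Control, 2.33 ± 0.45 over NOB and 2.46 ± 0.46 over SOR. Its SOR+NOB libraries lay between 2.97 and 5.49 CPM, above all 9 others, and it stayed a low-abundance transcript (0.642 ± 0.205 FPKM). The promoter of its downstream start (GRCh38.p14, chr10:6202682-6202981, plus strand) holds an E-box 108 bases before the start and the core TGACG of the cAMP response element at 61, both in capitals. An upstream start has a promoter with TGACG and no E-box, which is not shown.
PFKFB3: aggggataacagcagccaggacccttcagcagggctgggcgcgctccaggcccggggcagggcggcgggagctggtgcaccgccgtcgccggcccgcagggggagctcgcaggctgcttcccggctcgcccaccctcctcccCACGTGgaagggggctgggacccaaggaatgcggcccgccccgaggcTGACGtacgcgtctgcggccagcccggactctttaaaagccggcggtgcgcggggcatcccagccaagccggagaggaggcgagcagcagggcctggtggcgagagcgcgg

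PFKFB4, another inducible form (ENSG00000114268, chromosome 3, 48517684 to 48562015, minus strand), was at 3.78, 4.84 and 5.14 CPM in Control and 6.03, 6.73 and 5.73 in NOB. With sorafenib alone it was at 8.65, 7.22 and 7.11 CPM, and with both compounds at 10.4, 11.6 and 11.3. No 2 groups overlapped, and SOR+NOB was the highest (1.28 ± 0.16 against Control, adjusted p = 2.48e-07). The smaller rise in NOB (0.42, adjusted p = 0.0399) was lost in 13 of 21 alternatives, among them without any 1 of Control replicates 1 and 2, NOB replicates 1, 2 and 3 or SOR replicates 2 and 3 (adjusted p = 0.0512 to 0.215). PFKFB1, the liver form (ENSG00000158571, chromosome X, 54932961 to 54998534, minus strand), was highest with sorafenib alone. It was at 3.25, 3.04 and 2.52 CPM in Control and 3.81, 2.99 and 3.55 in NOB. With sorafenib alone it was at 6.73, 8.104 and 6.04 CPM, and with both compounds at 3.63, 4.33 and 4.21. The SOR libraries were above all 9 others, and NOB overlapped Control and SOR+NOB. It rose by 1.24 ± 0.20 in SOR, and nobiletin on top lowered it (-0.77 ± 0.19). Its call in SOR+NOB against Control (0.47, adjusted p = 0.0469) was lost in 17 of 21 alternatives, among them without any 1 of Control replicates 1, 2 and 3, NOB replicates 1, 2 and 3, SOR replicates 1, 2 and 3 or SOR+NOB replicates 2 and 3 (adjusted p = 0.0545 to 0.191). PFKFB2, the heart and kidney form, moved least, from 23.1 ± 1.18 CPM in Control to 27.8 ± 1.93 in SOR+NOB (0.26 ± 0.09). That call was lost without Control replicate 1 (adjusted p = 0.085).

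From aldolase to enolase, 7 of 8 genes rose with both compounds and none fell. Nobiletin alone raised 4 and lowered 1, and sorafenib alone raised 3 and lowered 2. Among genes averaging 10 CPM or more, 76.1%, 52.8% and 55.3% were called in these comparisons, and of all genes 64.2%, 38.2% and 41.0%. GAPDH, often used as a reference gene (ENSG00000111640, chromosome 12, 6533927 to 6538374, plus strand), was at 1039.8, 1002 and 998 CPM in Control and 1140.2, 1125 and 1093 in NOB. With sorafenib alone it was at 1132, 1058 and 1114 CPM, and with both compounds at 1267, 1234 and 1231. Each treated group lay above Control without overlap, and NOB and SOR overlapped each other. The differences from Control were 0.14 ± 0.04, 0.12 ± 0.04 and 0.30 ± 0.04 on the log2 scale. The SOR call is the least firm of these (adjusted p = 0.0365): it was lost without any 1 of Control replicates 2 and 3, NOB replicates 1, 2 and 3 or SOR replicates 1 and 3 (adjusted p = 0.0529 to 0.145), and with libraries scaled to total counts the log2 fold change was 0.02. The NOB call was lost without any 1 of Control replicates 2 and 3 or NOB replicates 1 and 2 (adjusted p = 0.0668 to 0.0885).

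ENO1, the enolase of most tissues, was at 933 ± 25.5 CPM in Control, fell in SOR to 783 ± 21.8 (-0.25 ± 0.05) and rose in SOR+NOB to 1198 ± 84.2 (0.36 ± 0.05). ENO2, the neuronal enolase (ENSG00000111674, chromosome 12, 6913745 to 6923698, plus strand), showed the same turn at larger size. Its Control libraries were at 39.5, 36.9 and 36.9 CPM, NOB at 28.6, 27.7 and 27.8, SOR at 28.1, 28.97 and 29.5 and SOR+NOB at 61.97, 76.6 and 71.8. Both single treatments lay below Control (-0.43 ± 0.08 and -0.39 ± 0.08) and the combination above it (0.89 ± 0.08), with no overlap between Control and any treated group, while NOB and SOR overlapped. The lowest of the SOR+NOB libraries was replicate 1.

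ALDOC, the brain aldolase, which the adult liver expresses little (ENSG00000109107, chromosome 17, 28573115 to 28577264, minus strand), was at 8.93, 7.12 and 8.68 CPM in Control and 10.5, 9.87 and 10.0 in NOB. In SOR it was at 18.1, 20.3 and 20.01 and in SOR+NOB at 20.9, 22.2 and 19.6 CPM, so that the libraries with sorafenib lay apart from those without. The rise was 1.24 ± 0.11 in SOR and 1.34 ± 0.11 in SOR+NOB. TPI1, which interconverts the triose phosphates, also rose with sorafenib (0.45 ± 0.08) and with both (0.56 ± 0.08), at 264 ± 20.4 and 285 ± 40.2 CPM against 193 ± 4.27 in Control. ALDOA rose in NOB (0.58 ± 0.12), and its call in SOR+NOB (0.36) was lost without any 1 of Control replicates 1 and 2 or SOR+NOB replicate 3 (adjusted p = 0.0631 to 0.127). PGK1, which makes ATP from bisphosphoglycerate, rose in NOB (0.29 ± 0.05) and SOR+NOB (0.38 ± 0.05). PGAM1, the next enzyme, rose in NOB alone among the comparisons with Control (0.35 ± 0.06, 106 ± 8.21 to 136 ± 4.67 CPM).

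**Figure D3:**
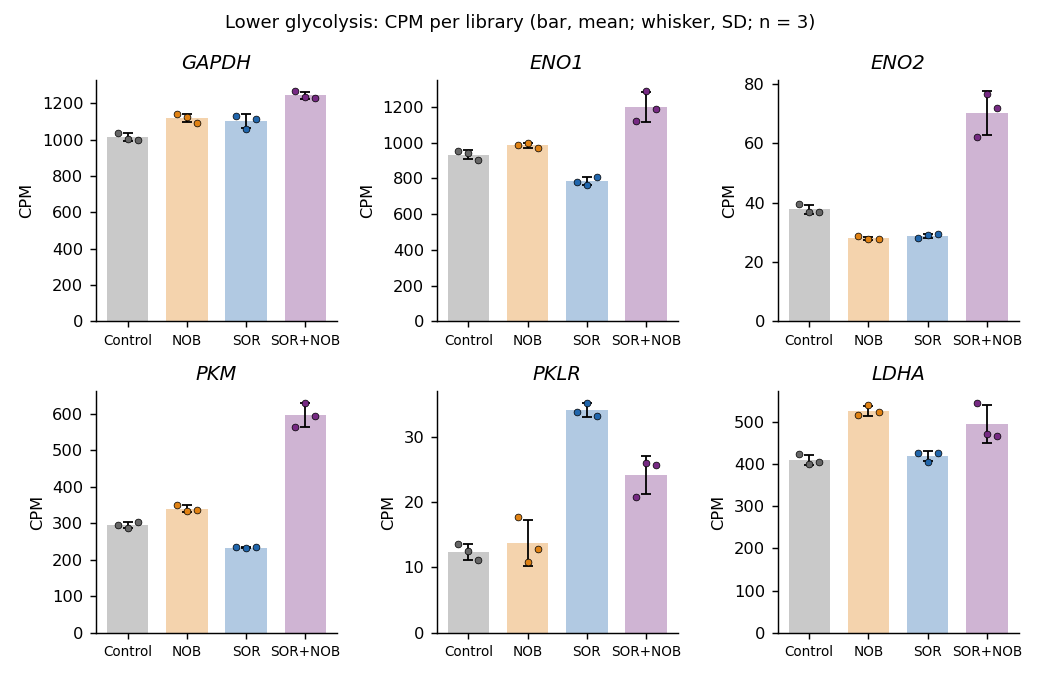
CPM per library (points) with the group mean (bar) and SD (whisker) for GAPDH, ENO1, ENO2, PKM, PKLR and LDHA in the 4 groups. PKM and ENO2 are highest in SOR+NOB and PKLR is highest in SOR.

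Pyruvate kinase makes the pyruvate and the second ATP of the path. PKM, the form of muscle and tumours (ENSG00000067225, chromosome 15, 72199029 to 72231822, minus strand), was at 297, 288 and 304 CPM in Control and 350.4, 333 and 338 in NOB. With sorafenib alone it was at 234, 232 and 234 CPM, and with both compounds at 564, 631 and 593. No 2 groups overlapped. It rose slightly with nobiletin (0.20 ± 0.05), fell with sorafenib (-0.34 ± 0.05) and rose with both (1.01 ± 0.05, adjusted p = 1.17e-13). The counts are per gene, so the M1 and M2 splice forms cannot be told apart.

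PKLR, the liver and red cell form (ENSG00000143627, chromosome 1, 155289293 to 155301438, minus strand), went the other way with sorafenib. The Control libraries were at 13.5, 12.5 and 11.1 CPM, NOB at 17.7, 10.8 and 12.8, SOR at 33.9, 35.2 and 33.2 and SOR+NOB at 20.8, 26.01 and 25.7. Sorafenib raised it by 1.46 ± 0.14 (adjusted p = 1.18e-08), NOB overlapped Control, and SOR+NOB lay between SOR and Control (0.97 ± 0.14 against Control). Of its 2 starts in RefSeq, the downstream one (GRCh38.p14, chr1:155300903-155301202, minus strand) is shown because it holds a paired element known from the rat gene as the carbohydrate response element, which ChREBP binds. The element begins 126 bases before the start and is in capitals, and it was looked for after the values were seen. With any bases allowed in its spacer, it occurs in 1 of 35116 promoters of the table, this one. The string was taken from the rat form of this same gene, so that count is no measure of how telling the match is. Whether ChREBP acts on it in these cells was not tested.
PKLR: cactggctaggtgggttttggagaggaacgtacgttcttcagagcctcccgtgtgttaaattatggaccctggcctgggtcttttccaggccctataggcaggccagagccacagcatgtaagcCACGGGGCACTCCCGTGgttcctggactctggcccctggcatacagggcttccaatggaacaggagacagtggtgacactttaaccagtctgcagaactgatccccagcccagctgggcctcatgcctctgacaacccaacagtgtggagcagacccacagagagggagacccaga

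LDHA, which turns pyruvate into lactate, rose in NOB from 409 ± 11.99 to 526 ± 11.9 CPM (0.36 ± 0.06) and less in SOR+NOB (495 ± 44.3 CPM, 0.27 ± 0.06). With sorafenib alone it stood at 419 ± 12.7 CPM and overlapped Control. With LDHB at 0, all lactate dehydrogenase counts of the A and B genes came from LDHA in every library.

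Among the 6 genes of gluconeogenesis, nobiletin raised 2 and lowered 3, sorafenib raised 1 and lowered 2, and both together raised 2 and lowered 3. The shares of all genes called were 38.2%, 41.0% and 64.2%, and 3 of 6 with sorafenib is near its background. All of the 6 but FBP1 averaged at least 10 CPM, and 52.8%, 55.3% and 76.1% of genes that abundant were called. The counts include SLC37A4 in NOB and PCK1 in SOR+NOB, whose calls were lost in most alternatives. No test of an excess was made. G6PC, the catalytic subunit of glucose 6-phosphatase and the last step of glucose release (ENSG00000131482, chromosome 17, 42900797 to 42913369, plus strand), followed nobiletin. It was at 67.3, 65.3 and 67.4 CPM in Control and 60.6, 56.9 and 53.9 in SOR, and at 28.6, 26.3 and 29.9 in NOB and 29.8, 28.7 and 28.2 in SOR+NOB. Its log2 fold change was -1.24 ± 0.07 in NOB and -1.21 ± 0.07 in SOR+NOB, whose libraries overlapped. The lower level in SOR (-0.22, adjusted p = 0.0145) was not called without any 1 of Control replicates 1 and 3 or SOR replicate 3 (adjusted p = 0.0515 to 0.0989). Its promoter (GRCh38.p14, chr17:42900549-42900848, plus strand, listed in RefSeq as G6PC1) is shown with the ATF4-type string TGATGNAA, here on the opposite strand, 137 bases before the start and the hypoxia response core ACGTG at 88, both in capitals.
G6PC: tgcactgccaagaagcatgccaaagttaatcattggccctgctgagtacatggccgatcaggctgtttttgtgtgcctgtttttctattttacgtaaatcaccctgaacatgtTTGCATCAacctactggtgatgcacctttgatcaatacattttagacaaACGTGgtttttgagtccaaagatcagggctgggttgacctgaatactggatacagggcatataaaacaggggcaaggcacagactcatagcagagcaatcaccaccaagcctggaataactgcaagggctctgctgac

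SLC37A4, the transporter that brings glucose 6-phosphate to this enzyme, moved the other way and rose in SOR+NOB (0.48 ± 0.08, 44.4 ± 2.72 to 61.9 ± 4.09 CPM). Its call in NOB (0.19, adjusted p = 0.0499) was lost in 16 of 21 alternatives, among them without any 1 of Control replicates 1, 2 and 3, NOB replicates 2 and 3, SOR replicates 1, 2 and 3 or SOR+NOB replicate 3 (adjusted p = 0.0575 to 0.258). The pyruvate carboxylase PC, which begins gluconeogenesis, fell in NOB (-0.32 ± 0.06), SOR (-0.66 ± 0.06) and SOR+NOB (-0.55 ± 0.06), from 125 ± 1.81 CPM to 99.7 ± 0.602, 78.95 ± 2.77 and 85.1 ± 3.69. PCK1, the cytosolic carboxykinase and the form that glucagon and fasting induce in liver, split the compounds. It fell with nobiletin to 18.7 ± 2.62 CPM (-0.54 ± 0.10) and rose with sorafenib to 43.3 ± 2.28 (0.67 ± 0.09), from 27.3 ± 1.47 in Control.

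With both compounds PCK1 was at 31.8 ± 1.55 CPM, and that call against Control (0.22, adjusted p = 0.0416) was lost in 17 of 21 alternatives, among them without any 1 of Control replicates 1, 2 and 3, NOB replicates 1 and 2, SOR replicates 1, 2 and 3 or SOR+NOB replicates 2 and 3 (adjusted p = 0.0532 to 0.163). PCK2, its mitochondrial counterpart and a target of the stress factor ATF4, changed little: 426 ± 7.57, 496 ± 5.58, 392 ± 7.64 and 385 ± 34.9 CPM in the 4 groups, with a rise in NOB (0.22 ± 0.06). Its lower level in SOR+NOB (-0.15, adjusted p = 0.0231) overlapped Control and was not called when libraries were scaled to total counts or when the compared libraries alone were fitted. FBP1 had 86, 57, 65 and 47 counts and was called in none of the comparisons.

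Isozyme shares, computed from FPKM within a library and given without a test, vary with treatment. SLC2A1 made up 79.3% ± 0.239 of the FPKM of the 3 transporters in Control, 94.4% ± 0.272 in NOB, 48.4% ± 0.864 in SOR and 87.5% ± 1.51 in SOR+NOB. SLC2A2 made up 16.9% ± 0.287 of them in Control and 41.8% ± 0.1004 in SOR, although its own level was lower there. PKLR supplied 28.1%, 29.1% and 27.7% of pyruvate kinase FPKM in the SOR libraries, and 8.05% to 12.02% in the 9 others. PCK1 supplied 3.78% ± 0.154 of carboxykinase FPKM in Control, 2.26% ± 0.293 in NOB, 6.36% ± 0.216 in SOR and 4.85% ± 0.259 in SOR+NOB. ENO2 stayed a minor enolase, at 3.396% ± 0.0671 in NOB and 6.71% ± 0.287 in SOR+NOB. ALDOC made up 44.9% ± 3.30 of the FPKM of ALDOA and ALDOC in Control and 40.1% ± 1.53 in NOB. In SOR it made up 63.7% ± 2.24 and in SOR+NOB 61.8% ± 5.06, with the level of ALDOA uncertain as said above. The summed FPKM of all 32 genes was 1249.8 ± 28.7 in Control, 1570.3 ± 12.5 in NOB, 1095 ± 19.1 in SOR and 1374 ± 30.1 in SOR+NOB. This sum is weighted to the most abundant genes. SLC2A1 alone was at 180.0 FPKM in Control, 419 in NOB, 31.1 in SOR and 136 in SOR+NOB. It makes up most of the difference of NOB and of SOR from Control in the sum.

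**Figure D4:**
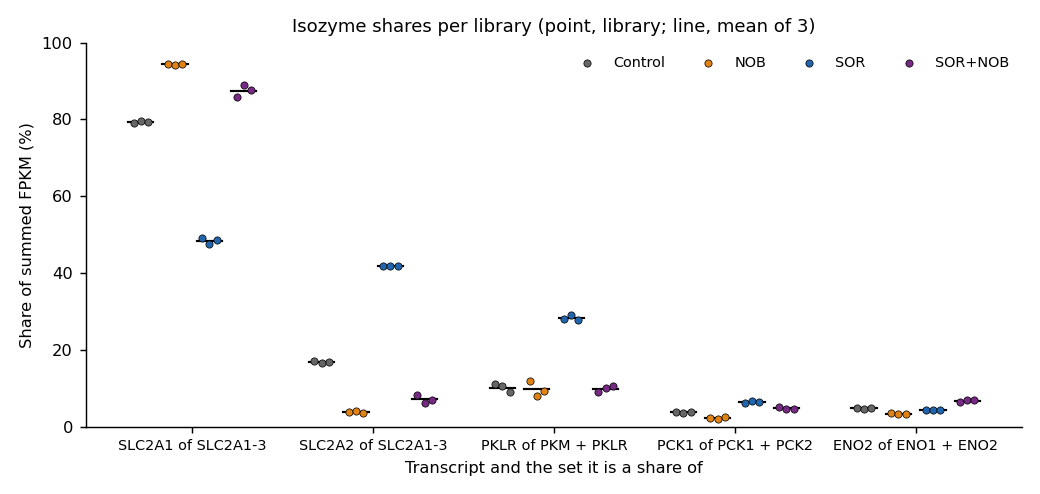
Share of a transcript in the summed FPKM of its isozymes (y axis, percent) for 5 transcripts in the 4 groups. Points are libraries and lines are means of 3. The SOR libraries stand apart in the transporter and pyruvate kinase shares, with SLC2A1 near 48.4% ± 0.864 and PKLR near 28.3% ± 0.737.

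The effect of nobiletin could differ with and without sorafenib, and the interaction term tests this gene by gene. It was called in 18 of the 31 members (58.1%), 13 of them with a higher and 5 with a lower effect in the presence of sorafenib, and in 52.0% of all genes (25.1% higher, 26.9% lower). Among the 24 members of at least 10 CPM it was called in 14 (58.3%), against 65.3% of all genes that abundant, and no test of that difference was made. On the log2 scale SLC2A1 (0.91 ± 0.07) and PKM (1.15 ± 0.07) rose with nobiletin in both settings, by more with sorafenib. In mean CPM the step of SLC2A1 was smaller with sorafenib (148 in SOR to 654 in SOR+NOB) than without it (853 in Control to 2003 in NOB). ENO2 (1.71 ± 0.11) fell with nobiletin alone and rose when it was added to sorafenib, and ENO1 (0.54 ± 0.07) was not called with nobiletin alone and rose with it on top of sorafenib. PGM1 (-1.06 ± 0.10), PFKFB1 (-1.004 ± 0.28) and PKLR (-0.65 ± 0.19) went the other way: each was raised by sorafenib alone and lay lower once nobiletin was added. SLC2A2, HK2 and GAPDH were among the 13 not called.

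**Figure D5:**
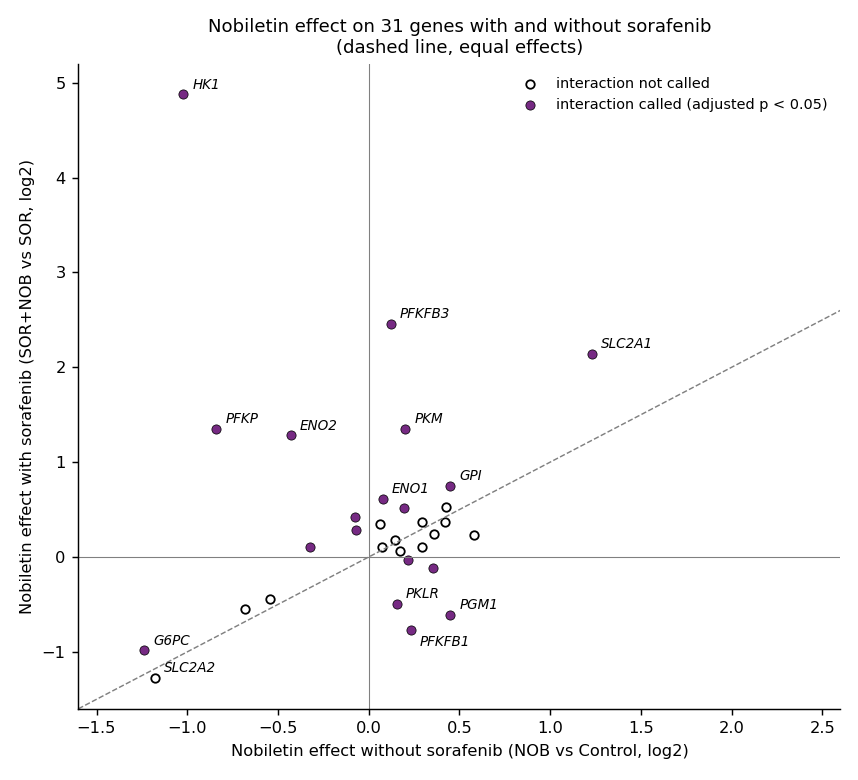
Log2 effect of nobiletin without sorafenib (x axis, NOB against Control) and with it (y axis, SOR+NOB against SOR) for the 31 tested genes. The 2 axes use different libraries, the dashed line marks equal effects, and filled points are the 18 genes with a called interaction. SLC2A1, PKM, ENO2 and PFKFB3 lie above the line, and PGM1, PFKFB1 and PKLR below it.

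RefSeq promoters were found for 29 of the 32 genes, 57 in all because many genes have several starts. The 6 strings were looked for on both strands within 250 bases before and 50 after each start. The E-box CACGTG was in 7 of the 57 promoters (12.3%) and in 7.26% of all 35116 promoters of the table, and the hypoxia response core ACGTG, which every E-box contains, was in 35.1% and 21.4%. The cAMP response element TGACGTCA was in LDHA alone among the members (1.85% of all promoters), and its core TGACG was in 14.04% of member promoters and 24.6% of all. The ATF4-type string TGATGNAA was in 3 member promoters, 1 of G6PC and 2 overlapping ones of HK1, and in 3.62% of all. Starts of 1 gene overlap, so promoters are not independent, and a match is a string of letters and no more. Counts are per gene, so they do not show which start of HK2, PFKFB3 or PKLR was used in these cells. The genes with an E-box were ALDOA, ALDOC, GAPDH, HK2, LDHA, PFKFB3 and PKLR.

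Of 11 other isozymes of these steps, 8 were tested. In NOB 3 of the 8 rose and 1 fell, with sorafenib 2 and 2, with both agents 4 and 1, at median log2 fold changes of 0.30, 0.29 and 0.59 in that order. These counts are close to the 38.2%, 41.0% and 64.2% of all genes called. ENO3, the muscle enolase, was at 11.6 ± 0.618 CPM in Control, fell in NOB (-0.64) and rose in SOR (0.72) and SOR+NOB (0.90). BPGM, which makes 2,3-bisphosphoglycerate, rose in all 3 (0.54, 0.79 and 1.55). LDHD, which oxidises D-lactate, fell in SOR+NOB (-1.23).

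Genes that handle pyruvate and lactate past glycolysis moved in both directions: of 14 tested, 5 rose and 4 fell in NOB, 6 and 3 with sorafenib, and 4 and 4 with both agents, at median log2 fold changes of -0.02, 0.05 and 0.0041. Called shares over all genes were 38.2%, 41.0% and 64.2%. PDK1 and PDK2 are kinases that switch off pyruvate dehydrogenase. PDK1 rose in NOB (0.72), SOR (0.51) and SOR+NOB (1.05), while PDK2 fell in NOB (-0.56) and in SOR+NOB (-1.87), where it was at 6.02 ± 0.246 CPM against 22.05 ± 0.982 in Control. MPC2, a subunit of the mitochondrial pyruvate carrier, rose in SOR (1.02) and SOR+NOB (0.67). PDP1, a phosphatase that switches pyruvate dehydrogenase on, fell in both single treatments (-0.84 and -0.70).

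The pentose phosphate pathway branches off at glucose 6-phosphate and makes NADPH. Of its 7 genes 5 rose in NOB, 2 in SOR and 6 in SOR+NOB, and 1 fell in SOR+NOB, at median log2 fold changes of 0.46, 0.15 and 0.45, where 38.2%, 41.0% and 64.2% of all genes were called. TALDO1, of the branch that returns sugars to glycolysis, rose in NOB (0.71) and SOR+NOB (1.02). Of 10 tested glycogen genes, 7 rose and 0 fell in NOB, 5 and 2 with sorafenib, and 6 and 3 with both agents, at median log2 fold changes of 0.30, 0.26 and 0.59, beside the same shares of all genes (38.2%, 41.0% and 64.2%). PPP1R3C, which brings a phosphatase to glycogen, rose most in SOR (2.42). GYG2, the liver glycogenin that primes glycogen, rose in SOR (0.99) and fell in SOR+NOB (-0.81). UGP2, which makes UDP-glucose, and the branching enzyme GBE1 rose in SOR+NOB by 1.08 and 1.34.

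Fructose, sorbitol and glycerol enter glycolysis at the triose phosphates. Of 6 tested genes of these routes, 2 rose and 2 fell in NOB, 4 and 1 with sorafenib, and 3 and 2 with both agents, at median log2 fold changes of 0.06, 0.58 and 0.19. Over all genes 38.2%, 41.0% and 64.2% were called. The glycerol kinase GK fell in all 3 groups, from 345 ± 10.2 CPM in Control to 121 ± 7.56, 139 ± 6.02 and 82.95 ± 9.29. TKFC, which phosphorylates glyceraldehyde, rose most in SOR (1.86), as did GPD1, the cytosolic glycerol 3-phosphate dehydrogenase (1.44). Of 14 regulators of glucose metabolism, 4 rose and 5 fell in NOB, 5 and 6 with sorafenib, and 6 and 5 with both agents, at median log2 fold changes of -0.06, -0.18 and 0.20, beside the same 38.2%, 41.0% and 64.2% of all genes. MYC, which activates glycolytic genes in tumours, was at 313 ± 8.68 CPM in Control, 275 ± 6.24 in NOB, 186 ± 8.84 in SOR and 655 ± 19.6 in SOR+NOB. CREB3L3, a liver factor of the fasting response, fell in NOB (-1.94) and SOR+NOB (-0.55), and HNF4A, a factor of hepatocyte identity, rose in SOR (0.70) and fell in SOR+NOB (-0.52).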

How the data were processed

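HepG2 RNA was taken up in TRIzol and made into libraries either by poly(A) capture or by removing rRNA, and the labels' protocols do not say which. The submitters' processing notes name GRCh38, HISAT2 2.0.5 as a tool and featureCounts 1.5.0-p3. Strandedness and the treatment of multiply mapped reads were not stated in those sources. The deposited table of raw counts was the basis of every test. The deposited FPKM equalled count over gene length and library total times 1 factor per library (0.939 to 1.08), and served for levels between genes, isozyme shares and alternatives. The authors' group FPKM are means of the 3 libraries. Positions are those of the count table, identical for all 32 genes to GENCODE 29 (GRCh38), and promoters are from RefSeq (GRCh38.p14).

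Counts were fitted in R 4.3.3 with edgeR 4.0.16 (filterByExpr by group, which left 17115 genes, TMM, robust quasi-likelihood, 1 mean per group, 12 libraries, 8 residual degrees of freedom). SE is the log2 fold change over the square root of F. Benjamini-Hochberg adjustment ran over the 17115 genes within each comparison, with calls under 0.05. Alternatives used DESeq2 1.42.0, limma 3.58.1 on log2(FPKM + 1) or log2(FPKM + 0.1), RLE or no scale factors, no filter, the compared libraries only, a replicate block, and leaving out each library. The procedure was tested on simulated data. The replicate numbers are shared by the titles of all groups, but same-numbered libraries did not deviate together (median correlation -0.01 over 18 pairs, -0.05 to 0.04), so they were not used for pairing. No 2 libraries agreed within sampling noise. Members, gene lists and tests were chosen with earlier results of these data known. All 32 members are named. Values in every library are printed for GAPDH and for members with a mean of at least 2 CPM that were called with a log2 fold change of at least 1 in either direction in any comparison. Of the 80 genes in 8 lists of neighbouring pathways, those called at that size may be named, up to 4 a list, though not every gene so eligible is reported here. Exact intervals (95%) and limits from 0 counts (3 counts) cover counting error only.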

Additional observations from a re-analysis of the deposited data

Results flagged for a closer look

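These 18 members are listed because the log2 effect of nobiletin differed with and without sorafenib by the interaction term of edgeR's quasi-likelihood test, adjusted over all genes. The same term was called in 52.0% of all genes. Among abundant genes, the effect on SLC2A1 was 1.23 without and 2.14 with sorafenib, a difference of 0.91 ± 0.07 (adjusted p = 1.1e-10). PKM had 0.20 without and 1.35 with sorafenib, a difference of 1.15 ± 0.07 (adjusted p = 8.69e-12). For ENO2 the effect was -0.43 without and 1.28 with sorafenib, a difference of 1.71 ± 0.11, and for ENO1 0.08 without and 0.61 with sorafenib, a difference of 0.54 ± 0.07. GPI had 0.45 without and 0.75 with sorafenib, a difference of 0.30 ± 0.07, and PC -0.32 without and 0.11 with sorafenib, a difference of 0.43 ± 0.08. The transporter SLC2A3 had -0.07 without and 0.42 with sorafenib, a difference of 0.49 ± 0.11, and SLC37A4 0.19 without and 0.51 with sorafenib, a difference of 0.32 ± 0.11, a call lost without any 1 of Control replicate 2, NOB replicate 1 or SOR replicate 2 (adjusted p = 0.0601 to 0.0645).

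Effects were lower with sorafenib for 5 members. PGM1 had 0.45 without and -0.61 with sorafenib, a difference of -1.06 ± 0.10 (adjusted p = 4.96e-09). PFKFB1 had 0.23 without and -0.77 with sorafenib, a difference of -1.004 ± 0.28, and PKLR 0.16 without and -0.49 with sorafenib, a difference of -0.65 ± 0.19. PGAM1 had 0.35 without and -0.11 with sorafenib, a difference of -0.47 ± 0.09, and PCK2 0.22 without and -0.03 with sorafenib, a difference of -0.24 ± 0.08, a call lost with libraries scaled to total counts.

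The largest differences belong to genes with few counts, HK1, PFKFB3 and PFKP, while PFKFB2 and G6PC had more counts and smaller differences. HK1, with 3 counts in SOR, had -1.02 without and 4.88 with sorafenib, a difference of 5.90 ± 1.06, and these fitted values depend on the prior count. PFKFB3 had 0.12 without and 2.46 with sorafenib, a difference of 2.34 ± 0.69, a call lost without Control replicate 3 (adjusted p = 0.056), and PFKP -0.84 without and 1.35 with sorafenib, a difference of 2.19 ± 0.56. The effect on PFKFB2 was -0.07 without and 0.28 with sorafenib, a difference of 0.35 ± 0.13, not called without any 1 of Control replicates 2 and 3, NOB replicate 1 or SOR replicates 1 and 3 (adjusted p = 0.0572 to 0.0852). G6PC had -1.24 without and -0.98 with sorafenib, a difference of 0.25 ± 0.10, not called without any 1 of Control replicates 1, 2 and 3, NOB replicates 1 and 2, SOR replicates 2 and 3 or SOR+NOB replicate 2 (adjusted p = 0.0507 to 0.157).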

How the results depend on the processing

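The counts of members called higher and lower stayed within 1.5 times their value in each comparison under all alternatives run. Leaving out each library in turn gave 11 to 15 higher and 5 to 6 lower in NOB against Control, 8 to 10 higher and 9 to 12 lower in SOR and 15 to 18 higher and 6 lower in SOR+NOB, 15 to 19 higher and 6 lower against SOR, and 14 to 17 higher and 7 to 8 lower against NOB. The interaction had 10 to 14 higher and 5 to 7 lower. With the replicate number as a block, members called higher and lower were 12 and 5, 8 and 11, 18 and 6, 16 and 6, 15 and 7 and 12 and 5 in the same order. Of 186 member and comparison pairs 126 were called, and no called pair changed direction in any of 21 alternatives. Of these, 102 kept their call in every alternative that tested them and 24 lost it in at least 1. Of the pairs not called, 24 changed sign in some alternative while staying uncalled. Scaling to total counts moved the median log2 fold change of all genes by 0.15 in SOR+NOB against SOR and by -0.10 in SOR against Control, and changes of that size are not separable from scaling. Limma on filtered FPKM did not test HK1, PFKM, PFKP and PFKFB3 where their mean was under 0.5 FPKM. Depth limits HK1, PFKP, PFKFB3 and FBP1, with 3 to 261 counts a group.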

Other observations

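Several glycolytic genes are targets of hypoxia-inducible factor, so 9 tested hypoxia-inducible genes outside glycolysis were read beside them. In NOB 3 rose and 2 fell, with sorafenib 4 and 1, with both agents 4 and 3, at median log2 fold changes of 0.06, 0.17 and 0.20, where 38.2%, 41.0% and 64.2% of all genes were called. NDRG1 was at 136 ± 1.53 CPM in Control, 66.4 ± 2.097 in NOB, 185 ± 3.803 in SOR and 119 ± 15.04 in SOR+NOB. The prolyl hydroxylase EGLN3 fell in all 3 groups (-0.83, -0.69 and -1.997), and the carbonic anhydrase CA9 rose in SOR+NOB (2.87) to 1.25 ± 0.278 CPM.

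The malate-aspartate shuttle carries reducing equivalents of glycolytic NADH into mitochondria. Of its 4 genes (MDH1, MDH2, GOT1 and GOT2), 3 rose and 1 fell in NOB, 2 rose and 1 fell in SOR, and 3 rose in SOR+NOB, at median log2 fold changes of 0.36, 0.06 and 0.67, beside the same 38.2%, 41.0% and 64.2% of all genes.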
